A study of Drosophila simulans and Drosophila kikkawai and Drosophila takahashii with 176 samples.

Results

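The cytosolic ribosomal protein genes of D. melanogaster were examined in accessory glands (AGs) and testes. Members were the rows whose FlyBase symbol begins with RpL, for proteins of the large 60S subunit, or RpS, for proteins of the small 40S subunit. The name table held 92 such symbols, and 87 of them had a row among the 17727 rows of the tables. Of these, 85 are described here. RpL19, RpL27A, RpL31, RpS10b and RpS12 were not analysed here, because their identifiers had no matching row. The rule used no measured value.

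A ribosome carries most of its proteins as 1 copy each, so the genes of the family are expressed together in growing and secreting cells. In flies many of these genes are known as Minute loci, at which the loss of 1 copy delays development. Several proteins have a second gene that arose by duplication or by reinsertion of a copied transcript, and such copies are known in Drosophila chiefly from the germline, as with RpL22-like in the testis and RpS19b in the ovary. Other genes with a ribosomal name code for relatives that take part in ribosome assembly and leave before the ribosome is complete.

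There were 8 libraries, 4 from AGs and 4 from testes, each made from poly(A) RNA of organs pooled from adult males of mixed stage. In each organ 2 libraries came from the genome reference strain, y; cn bw sp, and 2 from the strain ED10, and the labels give no treatment. Values are given below in the order reference 1, reference 2, ED10 1 and ED10 2, where the numbers only name the libraries. The reference and the ED10 libraries were dissected by different people, and ED10 2 of each organ was read on a different sequencing platform, so strain, dissector and part of the platform cannot be told apart. The deposited values are the authors' TPM, a measure of transcript abundance, which correct for transcript length. Their totals ran from 1070165 to 1959870 per library and are therefore not shares of a fixed sum; read depth was not used. In the comparison described below, 6 of 6 secretory genes of the AG were higher in AGs, and 10 of 10 germline genes were higher in testes. The summed germline markers were nevertheless at 304.3 and 330.4 TPM in the reference AGs against 5.59 and 1.41 TPM in the ED10 AGs, and at 5563 to 9330 TPM in testes. The 6 secretory genes summed to 467.8 and 1452 TPM in the reference testes and to 46.7 and 7.78 TPM in the ED10 testes. In AGs they summed to 51045 to 134385 TPM. Of other cells an organ can carry, 5 ejaculatory duct and bulb markers summed to 386.6 to 2710 TPM in AGs and 144.1 to 389.1 TPM in testes, and 5 muscle markers to at most 1272 TPM in AGs and 821.2 TPM in testes. Their part in the organ differences was not tested.

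Ribosomal protein transcripts were more abundant in the AG than in the testis for nearly the whole family. The median TPM of the 61 members whose protein has a single gene was 1556, 1300, 2374 and 3213 in the AGs and 456.9, 280.6, 349 and 563.2 in the testes, so that the organs did not overlap. Expressed as part of each library's total, the 85 members made up 6.468%, 6.206%, 13.15% and 20.8% in AGs, or 11.66% ± 6.90 (SD, n = 4), and 3.14%, 2.146%, 2.32% and 4.329% in testes, or 2.98% ± 0.996 (SD, n = 4). The 2 AG values of the reference strain were the lowest of that organ, and each was still above every testis value.

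These percentages also depend on what else is abundant. The 193 other rows of highest level (the 100 highest of each organ) held 45.35% to 76.15% of the total in AGs and 29.7% to 32.7% in testes. With those rows left out of the total the members made up 27.1%, 18.3%, 29.1% and 38.1% in AGs and 4.67%, 3.13%, 3.38% and 6.16% in testes. In whole organs, fewer cells with high ribosome synthesis and less ribosomal protein RNA per cell cannot be told apart.

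**Figure D1:**
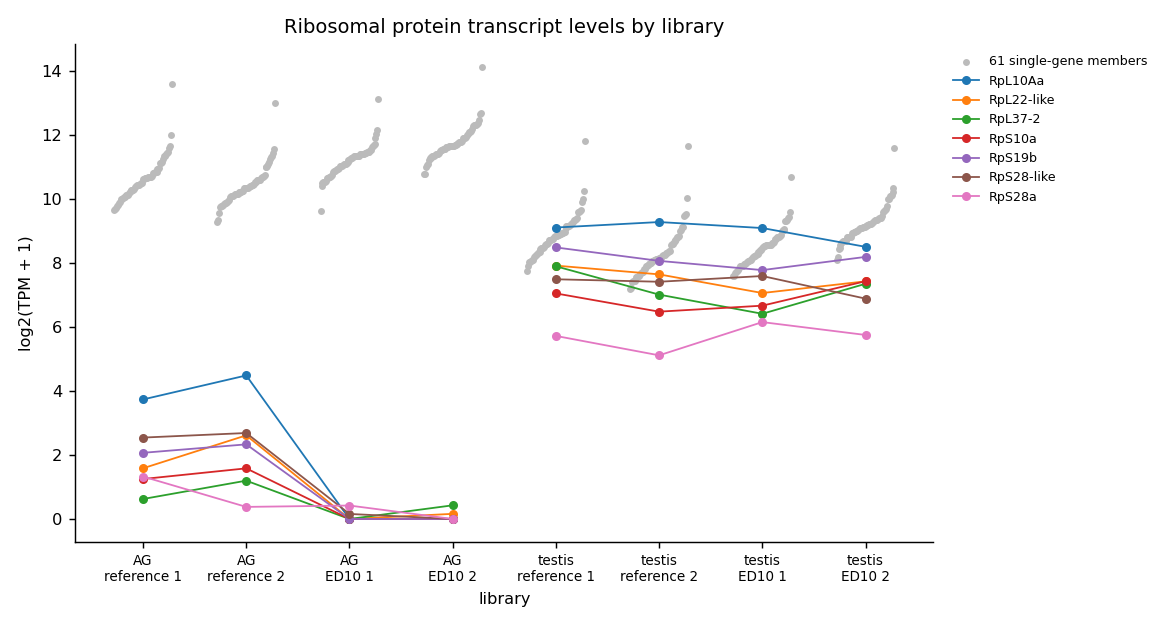
Levels of ribosomal protein transcripts as log2(TPM + 1) in the 4 AG and 4 testis libraries. Grey points are the 61 single-gene members, sorted within each library, and each colored line is 1 of the 7 paralogs that were higher in testes; those paralogs lie at 21.4 TPM or less in AGs and at 33.6 TPM or more in testes.

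Gene by gene, the organs were compared with limma on log2(TPM + 1) over 12130 genes with at least 1 TPM in at least 4 libraries, with Benjamini-Hochberg adjustment at 0.05. All 85 members passed the filter on low values. Of them, 75 were higher in the AG, where 15.4% of all tested genes were called, and 7 were higher in the testis, where 50.3% of all tested genes were called. The other 3, RpL24-like, RpL7-like and RpLP0-like, were not called. The 7 members higher in the testis passed the filter only through their testis libraries, since each was below 1 TPM in both ED10 AGs. The shares of all tested genes were taken through the same filter. The median log2 difference (testis minus AG) was −2.22 for the members and 1.04 for all tested genes. Over all genes that median moved to 1.24 when libraries were rescaled to the same total and to 0.76 with median-ratio scaling, and relative to it the members lay at −3.09 and −3.33, against −3.25 as deposited.

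Each of the 61 single-gene members was higher in the AG. Their differences spanned only −3.03 for RpL5, which binds the 5S rRNA, to −1.64 for RpS29, a protein of the 40S head, and the median corresponds to a 4.68-fold higher level in the AG. For 75 members the lowest AG library exceeded the highest testis library, which held for 12.8% of all tested genes. For 7 members every testis library exceeded every AG library, which held for 48.6% of all tested genes.

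**Figure D2:**
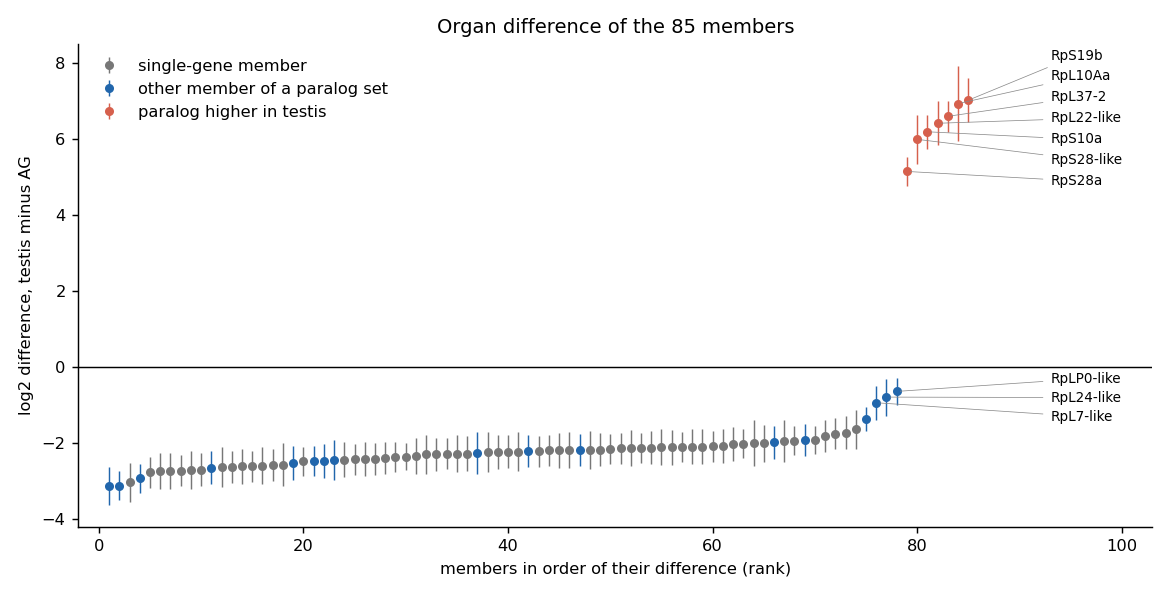
Difference between testis and AG in log2(TPM + 1) for each of the 85 members, in rank order, with the standard error from limma as bars. The single-gene members lie between −3.03 and −1.64, the 3 assembly-factor relatives are nearest to 0, and the 7 testis paralogs stand between 5.15 and 7.03.

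The most abundant single-gene member of both organs was RpL41, which codes for the shortest protein of the family, of 25 residues. It stood at 12269, 8138, 8881 and 17921 TPM in AGs and 3572, 3218, 1653 and 3064 TPM in testes. In the AG it was followed by RpL39, a small protein at the peptide exit tunnel, RpS23, a protein of the decoding center, the stalk protein RpLP2 and RpS18, with means of 4023, 4006, 3761 and 3490 TPM. In the testis the next were RpLP2, RpL39, RpS27A, which is made as a fusion with ubiquitin, and RpS23, with means of 1084, 884.2, 816.4 and 788.8 TPM. The leading 5 of the organs had 4 genes in common, although estimates for transcripts as short as those of RpL41 and RpL39 depend on how fragments are counted.

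The lowest means lay below the family median, at −0.89 log2 units for RpL26 in AGs and −0.75 for RpL18 in testes. In the AG the lowest single-gene members were RpL26, RpL17, RpS26, RpS27 and RpS3, with means from 1166 to 1483 TPM. In the testis they were RpL18, RpL17, RpL26, RpL28 and RpL27, with means from 253.2 to 273.1 TPM. Within either list the means differed by less than the SD between libraries. Over the 61 genes the rank correlation of the organ means was 0.74, and that of single libraries was 0.54 to 0.80 between AGs, 0.69 to 0.88 between testes and 0.45 to 0.79 across organs. These correlations are across genes that share libraries and are given as a description.

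Because nearly the whole family moved together, each gene was also expressed relative to the median of the 61 single-gene members in its own library, and the test was repeated. On this scale 11 members were higher in the testis, where 82.3% of all tested genes were called, and 2 were lower, where 4.78% of all tested genes were called. The differences of the single-gene members then ran from −0.72 to 0.67 log2 units, and 56 of 61 were within 0.5. Of these 61 genes, 60 did not pass the threshold. With most tested genes called on this scale, the adjustment changes p-values only slightly near the threshold.

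At the low end of this relative scale were RpL5 (−0.72, adjusted p = 0.0751), RpL35 (−0.46, adjusted p = 0.172), RpS4 (−0.42, adjusted p = 0.223), RpL7A (−0.42, adjusted p = 0.182) and RpL27 (−0.42, adjusted p = 0.261), none of which passed limma's threshold. At the high end were RpS29 (0.67, adjusted p = 0.0457), RpS13 (0.59, adjusted p = 0.0989), the stalk protein RpLP2 (0.56, adjusted p = 0.0733), RpS30, made as a fusion with a ubiquitin-like protein (0.51, adjusted p = 0.107), and RpL29 (0.39, adjusted p = 0.243). RpS29 was the only single-gene member called on this scale, and its call held in 4 of 15 alternative settings.

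By subunit, the median relative difference was 0.19 for the 24 single-gene 40S members, 5 of which were below 0, and 0.01 for the 37 single-gene 60S members, 18 of which were below 0. The ratio of the median 40S to the median 60S level was 0.94, 1.142, 1.141 and 1.07 in AGs and 1.32, 1.17, 1.23 and 1.143 in testes. Each testis ratio was above each AG ratio, although the nearest, 1.142 and 1.143, were almost equal. By chromosome, the 5 single-gene members on the X had a median relative difference of −0.38 and the other 56 had one of 0.10. The ratio of the median X-linked to the median autosomal level was 1.05, 1.07, 1.10 and 0.90 in AGs and 0.83, 0.94, 0.72 and 0.83 in testes. The lowest AG ratio fell below the highest testis ratio, and with 5 genes the value is a description.

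Some members varied between libraries of 1 organ much more than the rest. The SD of the log2 level relative to the family median had a median of 0.22 in AGs and 0.18 in testes. For RpL38, chosen after its values were seen, it was 1.09 and 0.78, with 3221, 877.6, 785.6 and 2930 TPM in AGs and 770.3, 263.4, 449.2 and 271.2 TPM in testes. RpS26, a protein at the mRNA exit channel, was next, with 891.2, 1701, 1482 and 1741 TPM in AGs and 587.3, 172.4, 396.8 and 289 TPM in testes. In neither gene did the high libraries belong to 1 strain.

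The 7 members that were higher in testes all came from duplicated forms, and they belong to 6 of the 12 sets of 2 or more symbols considered here. Positions are those of the Ensembl annotation of the BDGP6 assembly. RpL10Aa (chr3R:15037366-15038149), RpL22-like (chr2R:23246610-23247893), RpL37-2 (chr2R:23100057-23100478), RpS10a (chr3R:27652760-27653363), RpS19b (chr3R:23932729-23933530), RpS28a (chr3R:30022345-30022648) and RpS28-like (chr2L:9436804-9437227) are all autosomal. For 6 of them another gene of the set lies on the X, and the exception is RpL10Aa, whose partner RpL10Ab is on 3L. Of the 90 symbols considered 13 are X-linked, and 8 of these belong to sets of 2 or more. By set, 7 of the 12 have a symbol on the X, and RpS28a and RpS28-like share the X-linked RpS28b. With so few sets the X linkage of the partners is a description. The coding sequence lies in 1 exon in 6 of the 7 genes, against 19 of the 90 symbols. Since these genes were at or near 0 in AGs, the size of their log2 differences depends on the pseudocount, and the 5.15 to 7.03 with a pseudocount of 1 became 6.94 to 8.84 with 0.1 and 3.33 to 5.63 with 5.

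RpL10Aa codes for a protein of the L1 stalk, which lines the exit side for tRNA. It stood at 12.3, 21.4, 0 and 0 TPM in AGs and at 548.9, 618.3, 542.9 and 361.2 TPM in testes. Its partner RpL10Ab stood at 1406, 1443, 2306 and 3501 TPM in AGs and 540.7, 413.3, 401.8 and 751.5 TPM in testes. The 2 genes were thus at like levels in the testis, where RpL10Aa made up 50.4%, 59.9%, 57.5% and 32.5% of their sum, against 0.87%, 1.46%, 0% and 0% in AGs. The log2 difference of RpL10Aa was 6.94 ± 0.99 (SE, limma adjusted p = 0.000141), and it was 7.75 without reference AG 2 and 6.25 without either ED10 AG. It was the most abundant of the 7 paralogs in each testis library.

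RpS19b and RpS19a code for a protein of the 40S head. RpS19b stood at 3.19, 4.03, 0 and 0 TPM in AGs and 356.4, 266.2, 217.8 and 290.2 TPM in testes, with a log2 difference of 7.03 ± 0.58 (SE, limma adjusted p = 4.36e-06). RpS19a, on the X, stood at 1062, 924.6, 1699 and 2194 TPM in AGs and 243.4, 164.8, 177.8 and 333.7 TPM in testes. RpS19b exceeded RpS19a in 3 of 4 testis libraries, with a share of 55.7% ± 6.71 (SD, n = 4), and fell below it in ED10 2, at 46.5%.

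RpL22 and RpL22-like code for a 60S surface protein that in Drosophila has a long N-terminal extension, and both forms are known in the fly testis. RpL22-like stood at 1.998, 5.11, 0 and 0.12 TPM in AGs and 240.2, 198.5, 132.2 and 170.6 TPM in testes, with a log2 difference of 6.42 ± 0.57 (SE, limma adjusted p = 6.72e-06). RpL22 stood at 750.1, 897.4, 1750 and 2466 TPM in AGs and 132.4, 98.5, 143.6 and 258.1 TPM in testes. Its difference of −3.13 ± 0.49 was the most negative of the family, but RpS15Aa was almost equal at −3.12 ± 0.38 (SE). RpL22-like made up 64.5% and 66.8% of the pair in the reference testes and 47.9% and 39.8% in the ED10 testes. The share was therefore above the midpoint in 1 strain and below it in the other, although with 2 libraries each this was not tested.

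RpL37-2 and RpL37-1 code for a small zinc-binding protein of the 60S subunit. RpL37-2 stood at 0.54, 1.29, 0 and 0.34 TPM in AGs and 236.7, 127.7, 84.0 and 161.7 TPM in testes, with a log2 difference of 6.60 ± 0.41 (SE, limma adjusted p = 1.4e-06). RpL37-1, on the X, fell from 1291, 1207, 1592 and 2258 TPM in AGs to 228.4, 150.6, 170.6 and 284.5 TPM in testes. RpL37-2 made up 41.5% ± 8.32 (SD, n = 4) of the pair in testes and at most 0.107% in any AG library.

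RpS10a codes for a protein of the 40S beak, and its X-linked partner RpS10b was not analysed here. RpS10a stood at 1.38, 1.99, 0 and 0 TPM in AGs and 131.1, 87.99, 100.3 and 171 TPM in testes, with a log2 difference of 6.20 ± 0.45 (SE, limma adjusted p = 2.36e-06).

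The RpS28 set was the only one with 3 genes. RpS28b, on the X, made up at least 99.57% of the set in every AG library and 59.2%, 63.0%, 58.6% and 78.1% in testes. RpS28-like stood at 4.83, 5.43, 0.12 and 0 TPM in AGs and 178.4, 169, 191.5 and 117 TPM in testes, or 27.0% ± 7.93 (SD, n = 4) of the set in testes. RpS28a was the least abundant of the 7, at 1.51, 0.30, 0.34 and 0 TPM in AGs and 51.6, 33.6, 69.99 and 52.7 TPM in testes, or 8.30% ± 2.26 (SD, n = 4) of the set in testes. The log2 differences were 5.996 ± 0.65 for RpS28-like and 5.15 ± 0.37 for RpS28a (SE, limma adjusted p = 2.2e-05 and 2.38e-06). RpS28-like overlaps CG3769 on the same strand, so reads of the 2 genes may be divided uncertainly.

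**Figure D3:**
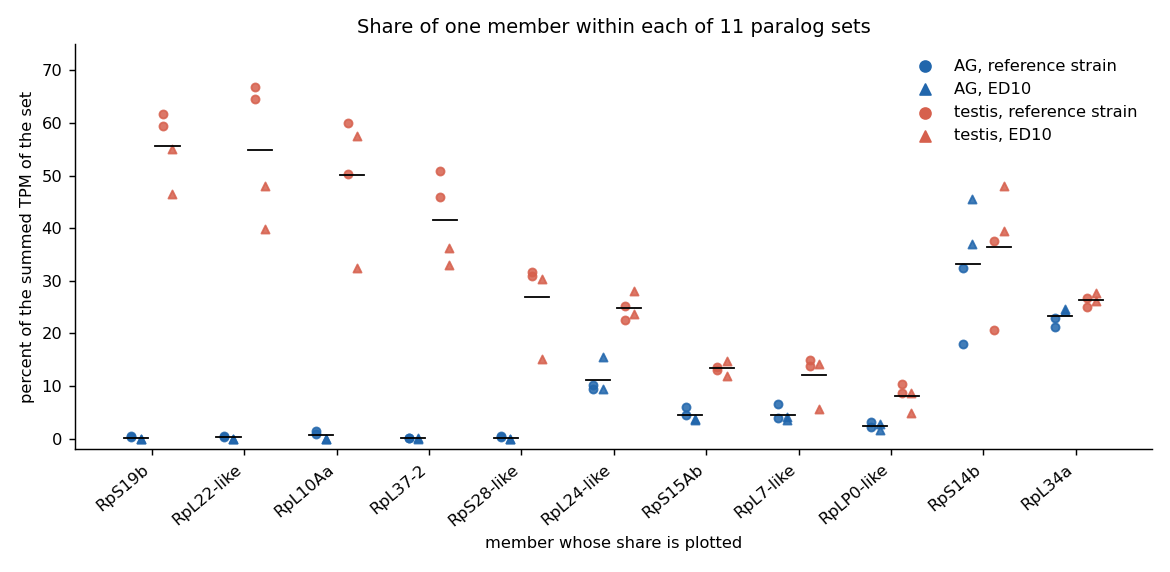
Percent of the summed TPM of each of 11 paralog sets held by 1 member, in AG (blue) and testis (red) libraries of the reference strain (circles) and ED10 (triangles). Black lines are means of 4. The member plotted is the one with the highest log2 difference (testis minus AG) of its set in the same libraries. In the 5 sets at the left the share is at most 1.46% in AGs and at least 15.1% in testes, while the RpS14b shares of both organs span the same range.

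Shares were compared between organs in 11 sets by a two-sided exact permutation test of 4 against 4 libraries, for which 0.0286 is the smallest p that can be given. The p-values were not adjusted over the sets. In each set the share was that of the member with the highest log2 difference (testis minus AG) in these same libraries. That choice largely fixed the direction in advance, so a higher share in testes is not in itself a result. For a pair of genes the p-value is the same for either gene, but in the RpS28 set it depends on the choice. The smallest p was reached in 9 sets: the 5 sets just described, RpL24, RpL34, RpLP0 and RpS15A. In the RpL10A, RpL22, RpL37 and RpS19 sets this outcome was fixed beforehand. There every testis library exceeded every AG library for 1 gene and lay below every AG library for its partner. RpS28-like and RpS28b were separated in the same way. For these 5 sets the p-value therefore adds no support. A share within a set does not depend on how a library is scaled. The same exact permutation test gave p = 0.0571 for the RpL7 set and p = 0.657 for the RpS14 set.

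Together the 7 testis paralogs held 4.53%, 5.48%, 4.79% and 2.86% of the summed ribosomal protein TPM in testes and at most 0.0374% in any AG library. The sums of the sets were then placed against the family median of the same library. The RpL10A set was at 0.03 ± 0.14 log2 units in AGs and at 1.39 ± 0.38 in testes (SD, n = 4), and the RpS19 set at −0.52 ± 0.04 and 0.34 ± 0.22. In both sets every testis library lay above every AG library. In the RpL22, RpL37 and RpS28 sets the sums were 0.17 to 0.42 log2 units higher in testes on average, with ranges that overlapped between the organs.

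The broadly expressed partners by themselves behaved differently. RpL22 was at −0.60 ± 0.31 relative to the family median in AGs and at −1.43 ± 0.29 in testes (SD, n = 4), RpL37-1 at −0.37 ± 0.22 and −0.98 ± 0.06, and RpS19a at −0.52 ± 0.04 and −0.85 ± 0.11. RpL10Ab was the exception with a higher relative level in testes, at 0.02 ± 0.14 in AGs and 0.36 ± 0.16 in testes. Of these, only RpL22 passed limma's threshold on the relative scale (−0.82 ± 0.35, limma adjusted p = 0.0447), and that call held in 6 of 15 alternative settings. In the RpL22, RpL37 and RpS19 sets the mean of the partner thus lay lower and that of the summed set higher in testes than in AGs. RpS28b was at 0.22 ± 0.40 in AGs and 0.008 ± 0.32 in testes (SD, n = 4), which differ by less than these SDs.

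**Figure D4:**
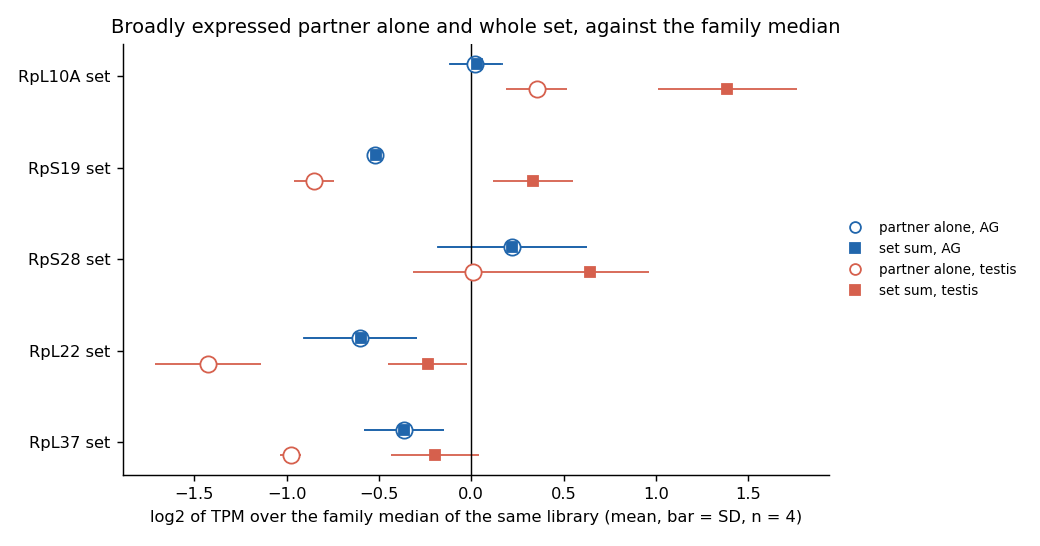
Level of the broadly expressed partner alone (open circles) and of the whole set (squares) as log2 over the family median of the same library, mean with SD over 4 libraries, in AGs (blue) and testes (red). In AGs the symbols coincide, since the paralog adds almost nothing, and in testes they separate by the paralog's contribution, as from −1.43 to −0.24 in the RpL22 set.

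In the RpS15A set, where both proteins have 130 residues, the intronless RpS15Ab stood at 104.5, 120, 94.7 and 144.7 TPM in AGs and 53.6, 38.4, 37.1 and 49.3 TPM in testes. RpS15Aa, on the X, stood at 2196, 1872, 2609 and 3681 TPM in AGs and 342.5, 255.3, 214.1 and 363 TPM in testes. Both genes were higher in AGs, but RpS15Aa differed more, and the share of RpS15Ab was 4.46% ± 1.13 in AGs and 13.3% ± 1.16 in testes (SD, n = 4). Relative to the family median RpS15Aa was lower in testes by −0.81 ± 0.30 (SE, limma adjusted p = 0.027), a call that held in 6 of 15 alternative settings. The summed set was 0.67 log2 units lower in testes, where no library overlapped the AG range.

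RpL34a and RpL34b, both on 3R, were used at nearly the same ratio in both organs. RpL34a made up 22.9%, 21.1%, 24.6% and 24.2% of the pair in AGs and 24.9%, 26.7%, 27.7% and 26.2% in testes. The difference of 3.16 percentage points was small but the organs did not overlap. RpS14a and RpS14b lie next to each other on the X and both code for a protein of 151 residues. The RpS14b share was 32.5%, 18.0%, 45.5% and 36.9% in AGs and 37.5%, 20.7%, 48.0% and 39.4% in testes, so that the organs overlapped. In each organ both ED10 libraries lay above both reference libraries. The labels pair no AG library with a testis library, so the organs were not compared within pairs. How the authors' pipeline divided reads that match more than 1 copy is not given in the sources used here, so the split within the RpS14, RpS15A and RpL34 sets is uncertain.

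A group of 3 members with the suffix "like" was present in both organs. Their yeast counterparts are ribosome assembly factors: Rlp24 for RpL24-like, Rlp7 for RpL7-like and Mrt4 for RpLP0-like. RpL24-like stood at 147.1, 66.6, 194.6 and 324.5 TPM in AGs and 101.3, 76.5, 73.0 and 121.4 TPM in testes. RpL7-like stood at 61.6, 33.8, 93.6 and 121.8 TPM in AGs and 52.1, 30.4, 41.8 and 25.5 TPM in testes. RpLP0-like stood at 23.9, 33.3, 54.8 and 45.5 TPM in AGs and 31.7, 23.4, 20.5 and 21.0 TPM in testes. The organs overlapped in each of the 3 genes.

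Their log2 differences of −0.79 ± 0.49, −0.94 ± 0.45 and −0.64 ± 0.35 (SE, limma adjusted p = 0.182, 0.093 and 0.137) did not pass the threshold. Without the 2 AG libraries of the reference strain, a choice made after seeing the data, they were −1.46, −1.54 and −1.04 and passed it. RpL24-like and RpL7-like also passed without reference AG 2 alone (limma adjusted p = 0.0263 and 0.0191), RpLP0-like without reference AG 1 alone (adjusted p = 0.03003), and RpL7-like and RpLP0-like with median-ratio scaling (adjusted p = 0.0285 and 0.0116). Relative to the family median they were higher in testes by 1.51, 1.34 and 1.62 (limma adjusted p = 0.00383, 0.0145 and 0.0034). On this scale 82.3% of all tested genes were called higher in testes, and the median of all tested genes was 3.01. A rise against the family, or in the shares below, is therefore not particular to these genes. RpL7-like overlaps CG34164 on the same strand. As shares of the sums with RpL24, RpL7 and RpLP0 they rose from 11.1% ± 2.98 to 24.8% ± 2.40, from 4.54% ± 1.41 to 12.1% ± 4.31 and from 2.43% ± 0.65 to 8.13% ± 2.38 between AG and testis (SD, n = 4), where the second of these did not pass the exact permutation test (p = 0.0571).

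Other genes of ribosome synthesis were taken from lists chosen with earlier results of these data known. Among 20 tested genes of ribosome assembly and the nucleolus, 5 were higher in AGs, 2 were higher in testes and 13 were not called, with a median of −0.69, beside 15.4% and 50.3% of all tested genes called higher in AGs and in testes. The largest differences were those of Non1 (−2.58) and Gar1 (−1.61) on one side and Nnp-1 (1.23) on the other, where the second gene was at 1.18. Against the family median, 17 of the 20 were higher in testes and none was lower in limma's test, nor at an unadjusted p below 0.05, beside 82.3% of all tested genes. RpL24-like, RpL7-like and RpLP0-like lay within the range of this list, at −0.79, −0.94 and −0.64.

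Proteins that work with the ribosome gave mixed values. The 40S protein sta, the fly form of RPSA, and Rack1, a scaffold on the 40S head, were higher in AGs, with differences of −2.87 ± 0.55 and −2.73 ± 0.50 log2 units (testis minus AG, SE, limma adjusted p = 0.00107 and 0.000779). Nacalpha and bic, the subunits of the nascent chain-associated complex, were not called, at −0.58 and −0.57. Of 8 elongation factors listed, 6 were found by symbol and tested, and eEF1alpha1 was not among these. Of the 6 tested, 3 were higher in AGs, led by eEF2 (−2.25) and eEF1gamma (−1.49). In testes 1 was higher, eEF1alpha2 (2.07), which stood at only 6.70 to 13.46 TPM there. It was followed by eEFSec at 0.75, which was not called. The shares of all tested genes called in these directions were 15.4% and 50.3%.

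None of 8 tested genes of RNA polymerase I, which transcribes the large rRNAs, was higher in AGs by limma, adjusted or at an unadjusted p below 0.05, and 3 were higher in testes, with the largest values for Polr1C (2.19) and Polr1E (1.59). With 50.3% of all tested genes called higher in testes, 3 of 8 is no result about this list. The lowest values were those of Polr1B (−0.41) and Polr1D (−0.22). Among 10 genes of growth control 5 were higher in AGs, led by the growth repressor foxo (−2.88) and the translation repressor Thor (−2.40), with the growth activator Myc at −2.28, beside 15.4% of all tested genes. None was higher in testes by limma, adjusted or at an unadjusted p below 0.05. The highest values there were those of S6KL (0.60) and mTor (−0.02). Of 4 factors linked to ribosomal protein promoters, Tbp was higher in AGs (−1.18) and Trf2, a TBP relative used at ribosomal protein promoters in flies, was higher in testes (2.12), while Dref and M1BP were not called (−0.39 and 0.16).

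The mitochondrial ribosomal proteins did not follow the cytosolic family. Of 71 genes with symbols beginning mRpL or mRpS, 33 were higher in testes, with the largest values for mRpS18A (3.14) and mRpS10 (2.60). With 50.3% of all tested genes called higher in testes, that count is no result about this list. In AGs 1 was higher, mRpS2 (−1.64), beside 15.4% of all tested genes. The next lowest was mRpL33 at −0.77, which was not called. Their median of 0.80 was below the 1.04 of all tested genes, whereas that of the cytosolic members was −2.22. The summed level was 1115 to 1846 TPM in AGs and 2206 to 2970 TPM in testes.

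Between strains, AG levels of most members were higher in ED10. The family medians of 1556 and 1300 TPM in the reference AGs lay below those of 2374 and 3213 TPM in the ED10 AGs, and 60 of the 61 single-gene members had a positive difference. These genes share the same AG libraries, so the count is a description. The 193 other rows of highest level held 76.15% and 66.02% of the total in the reference AGs. In the ED10 AGs they held 54.8% and 45.35%, and their part in the strain difference was not tested. The median of the 85 members was 0.91 log2 units (ED10 minus reference) and that of all tested genes was 0.15. The size depends on the scaling, which was varied after seeing the data. The members' median was 1.425, with 61 of 61 single-gene members above 0, when libraries were rescaled to the same total, and 0.24, with 50 of 61 above 0, with median-ratio scaling. In a limma fit of organ and strain, however, RpL7 (1.65 ± 0.48, adjusted p = 0.0497) was the only member called higher in ED10 AGs, where 3.09% of all tested genes were called. Its call held when libraries were rescaled to the same total, which gave 8 such members, and was lost with median-ratio scaling and when levels were divided by the family median.

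In the testis no member passed limma's threshold between strains, the smallest adjusted p being 0.395, and 1 member had an unadjusted p below 0.05. Of all tested genes 0.75% were called higher and 1.91% lower in ED10 testes. The family medians of the strains were interleaved, at 456.9 and 280.6 TPM against 349 and 563.2 TPM.

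Some testis paralogs went the other way in AGs. Of the 85 members 5 were called lower in ED10 AGs: RpL10Aa, RpL22-like, RpS10a, RpS19b and RpS28-like. With 13% of all tested genes called lower there, this count is no result about the family. Their log2 differences were −4.11, −2.02, −1.42, −2.20 and −2.54 (limma adjusted p = 0.000194, 0.0108, 0.0494, 0.00251 and 0.0014). All 5 were between 1.38 and 21.4 TPM in the reference AGs and between 0 and 0.12 TPM in the ED10 AGs. They had passed the filter on low values only through their testis libraries. The testis paralogs RpL37-2 (−0.70) and RpS28a (−0.64) were not called between strains in AGs (limma adjusted p = 0.363 and 0.373). The difference between organs was larger in ED10 for RpL10Aa (by 3.71), RpS19b (by 1.91) and RpS28-like (by 2.32), with limma adjusted p = 0.00517, 0.0485 and 0.0249 for the interaction of organ and strain, where 8.24% of all tested genes were called in this direction and 1.26% in the other. Divided by the family median, no member was called by limma for this interaction, and 2 had an unadjusted p below 0.05. With these paralogs at or near 0 in ED10 AGs, the sizes of their strain differences and interactions depend on the pseudocount. It was not varied in this fit.

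Most markers of the testis germline were also lower in the ED10 AGs. As percent of the testis mean, the 7 paralogs had medians of 1.13%, 1.63%, 0% and 0% in the 4 AG libraries, and the 10 germline markers had medians of 0.75%, 2.56%, 0.11% and 0.04%. Mst87F, a sperm tail gene, was at 4.64% and 3.65% in the reference AGs and at 0.0873% and 0% in the ED10 AGs. In 9 of 10 markers and 6 of 7 paralogs both ED10 AGs lay below both reference AGs. The exceptions were RpS28a and vas, an RNA helicase of early germ cells, which was at 0.245% and 0.825% in the reference AGs and at 0.466% and 1.73% in the ED10 AGs. In ED10 AGs 5 of the 7 paralogs were listed at 0 in each library, and 2 and 4 of the 10 markers were. The part of testis RNA in the AG values of the paralogs was not tested. Without the 2 reference AG libraries the same 7 members were higher in testes, by 5.47 to 8.99 log2 units.

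**Figure D5:**
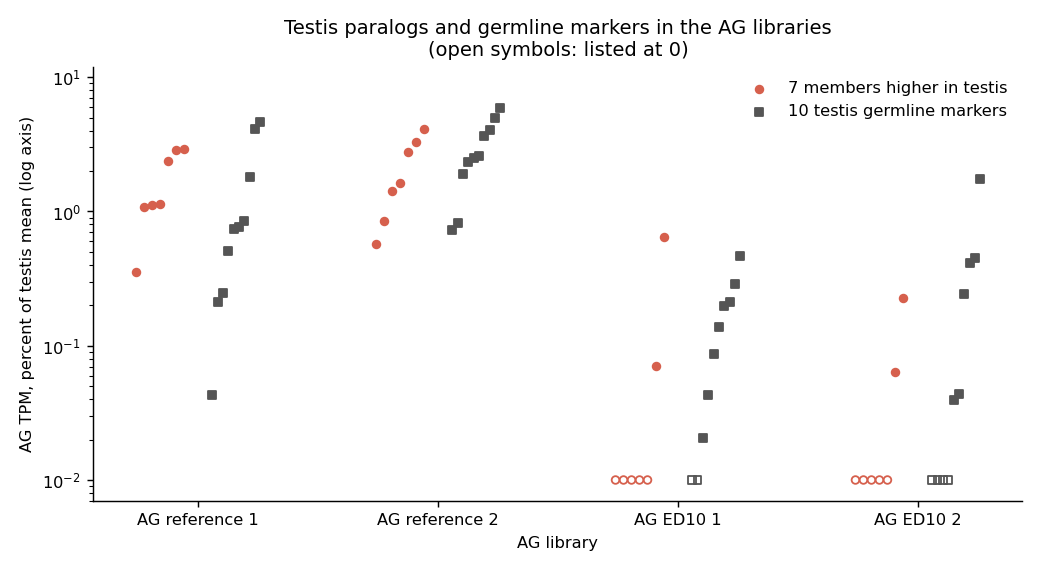
Level in each AG library as percent of the testis mean, on a log axis, for the 7 testis paralogs (red circles) and 10 germline markers (grey squares); open symbols at the bottom are listed at 0. Both groups lie between 0.0431% and 5.93% in the reference AGs and are mostly lower in ED10, where the highest values are 1.73% for a marker and 0.65% for a paralog.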

How the data were processed

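Poly(A) RNA of AGs and testes was sequenced in 12 runs of 8 directional, paired-end D. melanogaster libraries, 2 per organ and strain. The authors trimmed reads with Trimmomatic, aligned them with STAR 2.5.3 and estimated abundance with StringTie (1.3.4 in the submitters' notes, a later version in the study's methods). The deposited values are the authors' TPM per gene and library, treated as a signal, since library totals vary and exceed the sum expected of TPM. How transcripts were summed to genes is not given in the sources used here. A test for TPM was planned, and the same test was used for this signal. Tables of the other species were not used, and 0 per-sample columns were left out.

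Symbols came from FlyBase names (225 rows had none) and positions from the Ensembl annotation of BDGP6. Differences were tested with limma 3.58.1 (R 4.3.3, trend) on log2(TPM + 1), filtered at 1 TPM in 4 libraries, again after division by the median of the single-gene members, and in a fit of organ by strain. The script was tested on simulated data. Paralog shares were compared by exact permutation. The study describes the replicates as biological. Named genes were all members of sets with 2 or more symbols, the 5 highest and lowest single-gene members per organ and per direction of the relative difference, and 2 genes per direction of each pathway list. The members and lists were chosen with earlier results of these data known. Alternatives covered pseudocount, filter, scaling, strain, trend, platform and left-out libraries. A set of 2 members with rows is not reported here. Promoter motifs and protein sequences were not analysed here.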

Additional observations from a re-analysis of the deposited data

Results flagged for a closer look

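In groups of 4 libraries, 116 sets of values were tested for 1 library that stands apart, and 6 did; chance marks about 5% of such groups. RpS13 was low in reference testis 2, at 300.2 TPM against 462 to 495.3 TPM in the others. RpS28b was high in ED10 testis 2, at 604.6 TPM against 333.4 to 370.4 TPM. In the same library the share of RpS28-like was low, at 15.1% against 30.3% to 31.7%, and so was that of RpL7-like, at 5.71% against 13.8% to 14.9%. In AGs the share of RpL24-like was high in ED10 2, at 15.5% against 9.36% to 10.2%, and that of RpL7-like was high in reference 1, at 6.64% against 3.59% to 4.07%.

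The difference between organs differed between strains for 3 members by the interaction of organ and strain in limma, being larger in ED10 for RpL10Aa (3.71 log2 units, adjusted p = 0.00517), RpS28-like (2.32, adjusted p = 0.0249) and RpS19b (1.91, adjusted p = 0.0485). The AG libraries of the reference strain hold more RNA of germline markers, at 304.3 and 330.4 TPM summed against 5.59 and 1.41 TPM, and its part in these differences was not tested. The 3 members were at or near 0 in the ED10 AGs, so the sizes also depend on the pseudocount.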

How the results depend on the processing

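Members higher in testes numbered 7 in all 17 alternatives, and those higher in AGs numbered 71 to 78, against 75. The members' median difference was −1.86 (rescaled to the same total) to −2.69 (without the reference AGs), and the summed percent was lower in testes in every alternative. Calls relative to the family median were less stable. Instead of 2 members lower in testes there were 0 with a pseudocount of 5, with no filter and without the 2 libraries of the other platform, 1 without the reference AGs, and 0 to 2 with 1 library left out. In such fits RpL22 kept its call only without reference AG 1 or ED10 testis 2 (adjusted p up to 0.148 otherwise), RpS15Aa only without reference AG 2 or either reference testis (up to 0.0867), and RpS29 only without either reference testis (up to 0.169), while RpL7-like lost its call without reference testis 1 (adjusted p = 0.05001) or ED10 testis 1 (0.0514). RpS29 lost its organ call when rescaled to the same total (adjusted p = 0.11) or without ED10 AG 1 (adjusted p = 0.0673), RpLP2 and RpS13 when rescaled and RpL41 without a filter (adjusted p = 0.0562 to 0.0658). With 1 library left out the exact test cannot go below 0.0571, so shares are judged by size, and the RpS14b share changed sign, to −1.92 without reference AG 2, −0.69 without ED10 testis 1 and −4.84 without both reference AGs. Between strains, members higher in ED10 AGs numbered 1 as deposited, 8 when rescaled to the same total, and 0 with median-ratio scaling or the family median, and 3 rather than 5 were lower when rescaled. Members with an interaction numbered 3 as deposited, and 1, 5 and 0 under these 3 scalings, which were chosen after seeing the data. Over all genes, 76.6% of organ calls were higher in testes, 82.5% when rescaled and 68.5% with median-ratio scaling. No paired analysis was possible because replicate numbers only name the libraries. With 2 libraries per organ and strain, small strain differences may have been missed.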
